A study of Mus musculus with 18 samples.

Results

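The response to MPTP that frontal cortex, striatum and midbrain had in common was measured as the mean over the 3 regions of the log2 difference between MPTP and saline arrays. All 18 arrays of the series entered it, and a gene was read as changing alike where the difference had one sign in each region. The mice were C57BL/6J males, 14 weeks old, given 30 mg/kg MPTP by intraperitoneal injection once a day for 5 days, or saline in its place. Brains were taken 4 days after the last injection. The 6 groups, saline and MPTP in each region, had 3 arrays each, from 3 animals per treatment. The labels do not say that an array number marks the same animal in the 3 regions.

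MPTP crosses from blood into brain, where glia convert it to a charged compound that the dopamine transporter carries into dopaminergic neurons and that blocks the first complex of the respiratory chain. The cell bodies of these neurons lie in the midbrain and their densest terminals in the striatum, while the frontal cortex receives few, so the regions differ in how much of the direct target they hold. All 3 regions share the blood supply, circulating hormones and a similar set of vessels, microglia and astrocytes, which answer injury and stress with known sets of genes.

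The array values were log2 expression summaries. Within a group, arrays had correlations of 0.991 to 0.997, and an array's interquartile range was 3.37 to 3.65 in log2 units. That range was lowest, at 3.37 to 3.40, on 1 saline array of each region, replicate 2 in frontal cortex and midbrain and replicate 1 in striatum, and the counts of called genes and of gene list members are given without them as well. The difference between 3′ and 5′ control probe sets, a sign of RNA quality, ran from 0.134 to 0.270 on saline and from 0.144 to 0.276 on MPTP arrays. The labels of the regions fitted most of their markers. In saline mice the dopamine receptor Drd1 averaged 10.74 in striatum, 5.94 in frontal cortex and 4.78 in midbrain, the dopamine transporter Slc6a3 averaged 9.40 in midbrain and 3.79 to 4.01 elsewhere, and the cortical glutamate transporter Slc17a7 averaged 10.30 in frontal cortex. The midbrain transcription factors En1 and Foxa2 averaged 3.42 and 4.77 in saline midbrain, below 5.18, the median of all values, under which a level was not taken as shown to be above background.

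Limma with Benjamini-Hochberg adjustment called 1061 of 11741 tested genes at an adjusted p under 0.05 for the mean over the 3 regions, 9.04% of those tested. Of these 776 were higher in MPTP mice (6.61%) and 285 lower (2.43%). The balance between rises and falls depended on the 3 saline arrays of narrow range. Without them 347 genes were higher and 569 lower, 37.9% higher against 73.1% with them. The median change over all tested genes was 0.01, with 53.9% of genes above 0. When each animal, taken as one treatment and replicate number, was reduced to 1 mean over its regions, 622 genes were higher (5.3%) and 165 lower (1.41%), with 733 of the 1061 called again. The mean change was small for most called genes. Its median size was 0.25 for the rises and 0.22 for the falls, 36 rises and 6 falls exceeded 0.5, and 3 rises and 1 fall exceeded 1.

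Most called genes changed one way in every region. Of the 776 rises 741 were above 0 in all 3 regions (95.5%) and of the 285 falls 264 were below 0 in all 3 (92.6%), where 43.3% of all tested genes had one sign throughout. A gene called for the mean must tend to one sign, so these shares describe the called genes and support nothing further. The sizes were unequal. The median of the rises was 0.17 for frontal cortex, 0.26 for striatum and 0.32 for midbrain, and 466 of the 776 were largest in midbrain, 227 in striatum and 83 in frontal cortex. The falls had medians of -0.13, -0.27 and -0.24 in the same order, and 164 of the 285 were largest in striatum. Across genes, which are not independent replicates, the regional differences correlated at 0.348 between frontal cortex and striatum, 0.432 between frontal cortex and midbrain and 0.517 between striatum and midbrain.

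**Figure D1:**
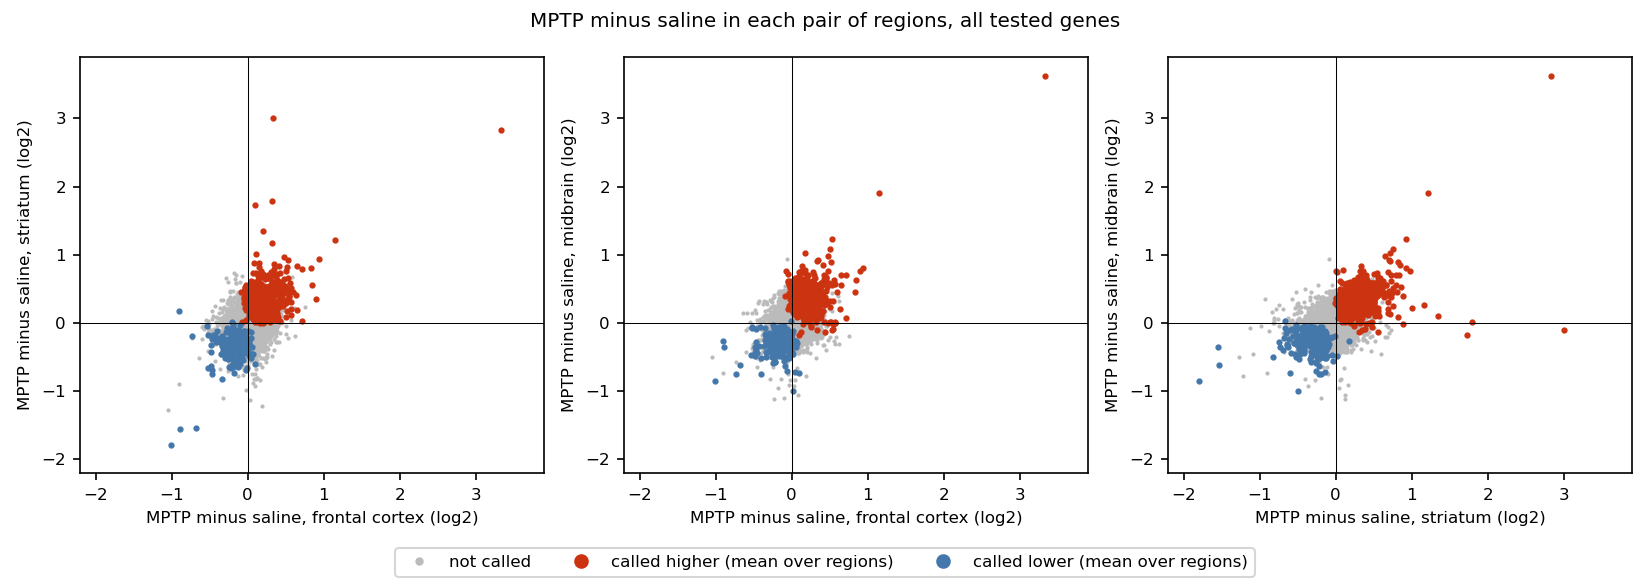
MPTP minus saline (log2) in one region against another for the 11741 tested genes, with genes called higher for the mean over regions in red and lower in blue. Called genes lie mostly in the upper right and lower left, and the spread along the frontal cortex axis is the narrowest of the 3.

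The pooled mean reached genes that no single region did. Tested alone, frontal cortex gave 8 called genes (0.0681%), striatum 246 (2.1%) and midbrain 303 (2.58%). Of the 776 rises 455 were called in no single region, 267 in 1 and 54 in 2. Of the 285 falls 199 were called in none, 77 in 1 and 9 in 2. No gene passed in all 3 regions when the largest of its 3 p-values was adjusted over all genes (0 of 11741, by limma with Benjamini-Hochberg adjustment), and 100 did so at an unadjusted p under 0.05 in each region (0.852%). The MPTP and saline arrays did not overlap in any region for 91 genes that were higher in MPTP mice (0.775%) and 16 that were lower (0.136%). The response differed between regions at an adjusted interaction p under 0.05 for 8 genes (0.0681%), and 785 passed unadjusted (6.69%).

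The genes with the largest rises in all 3 regions were acute phase and lipid genes, an endothelial gene and myeloid genes. Lipocalin 2 (Lcn2), a secreted iron-siderophore carrier induced in inflammation, had saline values of 3.68, 3.65 and 3.48 for frontal cortex, 3.77, 3.38 and 3.76 for striatum and 3.59, 3.81 and 3.65 for midbrain. In MPTP mice it read 8.18, 4.46 and 8.19 for frontal cortex, 7.59, 4.11 and 7.71 for striatum and 8.49, 4.78 and 8.66 for midbrain, for replicates 1, 2 and 3. Every MPTP value exceeded every saline value, yet replicate 2 lay within 1 unit of the highest saline array in each region, while replicates 1 and 3 stood far above. The mean rise was 3.27 (SE 0.52, adjusted p = 0.000504 by limma), 9.61-fold. The fit used 1 correlation within an animal for all genes, 0.00558. Where the numbers mark animals, this SE is too small for Lcn2, whose arrays of 1 number went together. Its call was kept in all 40 alternative settings that tested it, 1 mean per animal included, with an adjusted p of up to 0.0137 by limma. All 9 saline arrays were below 5.18, so only a rise of at least 1.73, the distance from 5.18 to the MPTP mean, is measured.

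Lrg1, a leucine-rich glycoprotein of the acute phase, rose by 1.42 (SE 0.20, adjusted p = 0.000259). Its saline values were 4.49, 5.02 and 4.92 for frontal cortex, 3.68, 3.45 and 3.38 for striatum and 3.48, 3.45 and 3.43 for midbrain, and its MPTP values 5.85, 5.29 and 6.73, then 4.82, 4.05 and 5.28, then 5.75, 4.25 and 6.09. The groups did not overlap in any region, all saline arrays lay below 5.18, and the measured rise is at least 0.32. In striatum the MPTP mean of 4.72 was also below 5.18, so no rise of Lrg1 is measured there. MPTP replicate 2 was again the lowest MPTP array in each region. The lipid droplet gene Plin4, the blood clotting factor gene Vwf of endothelium and the interferon-inducible membrane gene Ifitm1 rose by 0.90, 0.89 and 0.78. All saline arrays of Plin4 lay below 5.18, and its measured rise is at least 0.51. For Vwf the saline arrays read 6.69, 6.42 and 6.34 for frontal cortex, 6.26, 6.23 and 6.33 for striatum and 6.79, 6.32 and 7.15 for midbrain, against 7.82, 6.91 and 7.54, 7.73, 6.57 and 7.32, and 7.75, 7.25 and 7.67. Vwf was thus higher on every MPTP array than on any saline array of its region, with the lowest MPTP values on replicate 2.

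Among all 776 rises, 115 had the same numbered MPTP array lowest in the 3 regions (14.8%), and in 92 of those it was replicate 2. Among all tested genes it was 11% (1288 genes), replicate 2 in 521 of them. The other genes of this kind included Plin4, the sialomucin Podxl and the metallothionein Mt2. The labels give no record of single animals, and the part of this array number in the rises was not tested. Without replicate 2 of the MPTP group in any region, 602 genes were higher and 141 lower, with 661 of the 1061 shared. Without replicate 3 it was 258 and 83.

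**Figure D2:**
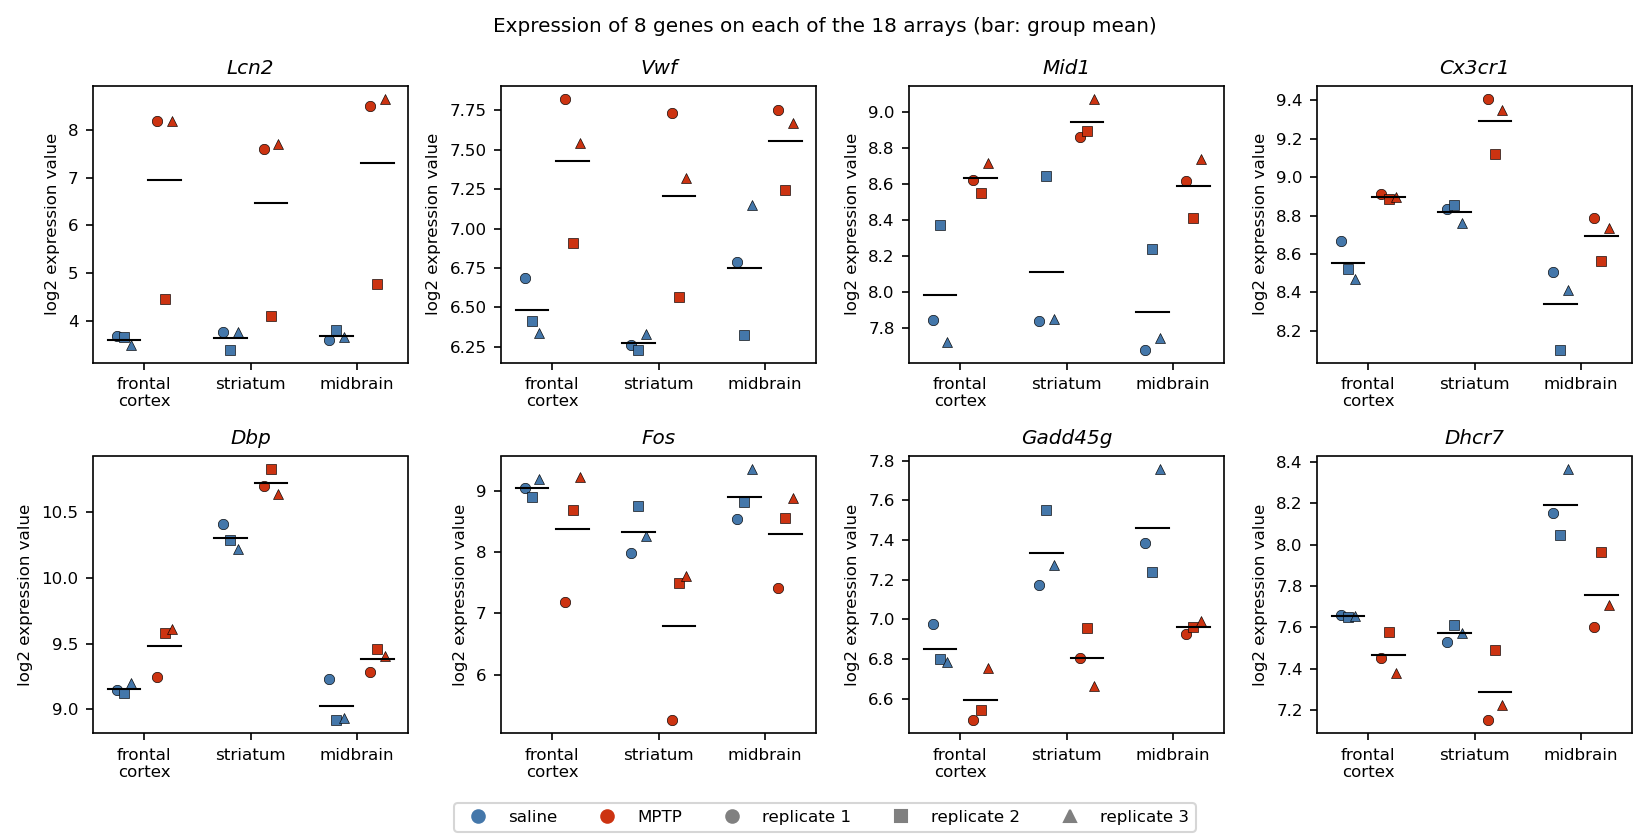
Log2 expression of 8 genes on each array by region, saline in blue and MPTP in red, with the marker shape giving the replicate number and a bar the group mean of 3. The MPTP square (replicate 2) is the lowest MPTP point of Lcn2 and Vwf in every region, the saline square is the highest saline point of Mid1, and the groups of Cx3cr1, Dbp, Gadd45g and Dhcr7 do not overlap in any region.

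The other large rises were of the myeloid and membrane genes Lyz1 and Lyz2 (lysozymes, 0.75 and 0.70), Cd14 (the co-receptor for bacterial lipopolysaccharide, 0.70, measured as at least 0.54), Pglyrp1 (a peptidoglycan-binding protein of granulocytes, 0.67) and Lpar6 (a lysophosphatidic acid receptor, 0.70). Also among the 15 largest were Osmr (the oncostatin M receptor, 0.74, with a measured rise of at least 0.26 and none of it in frontal cortex), Xdh (xanthine dehydrogenase, which makes uric acid, 0.74), Mid1 (a ubiquitin ligase of microtubules, 0.73), Rras2 (a small GTPase, 0.71) and Ifitm2 (0.66). Adjusted p-values by limma for these 10 genes lay at or below 0.00963, the highest being that of Xdh. Rras2 is the exception to an even response. It differed by 0.32 for frontal cortex, 1.79 for striatum and 0.01 for midbrain, and its mean is mostly the striatal value. Its striatal saline arrays lay below 5.18, so the measured rise is at least 1.44 in striatum and 0.59 for the mean.

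**Figure D3:**
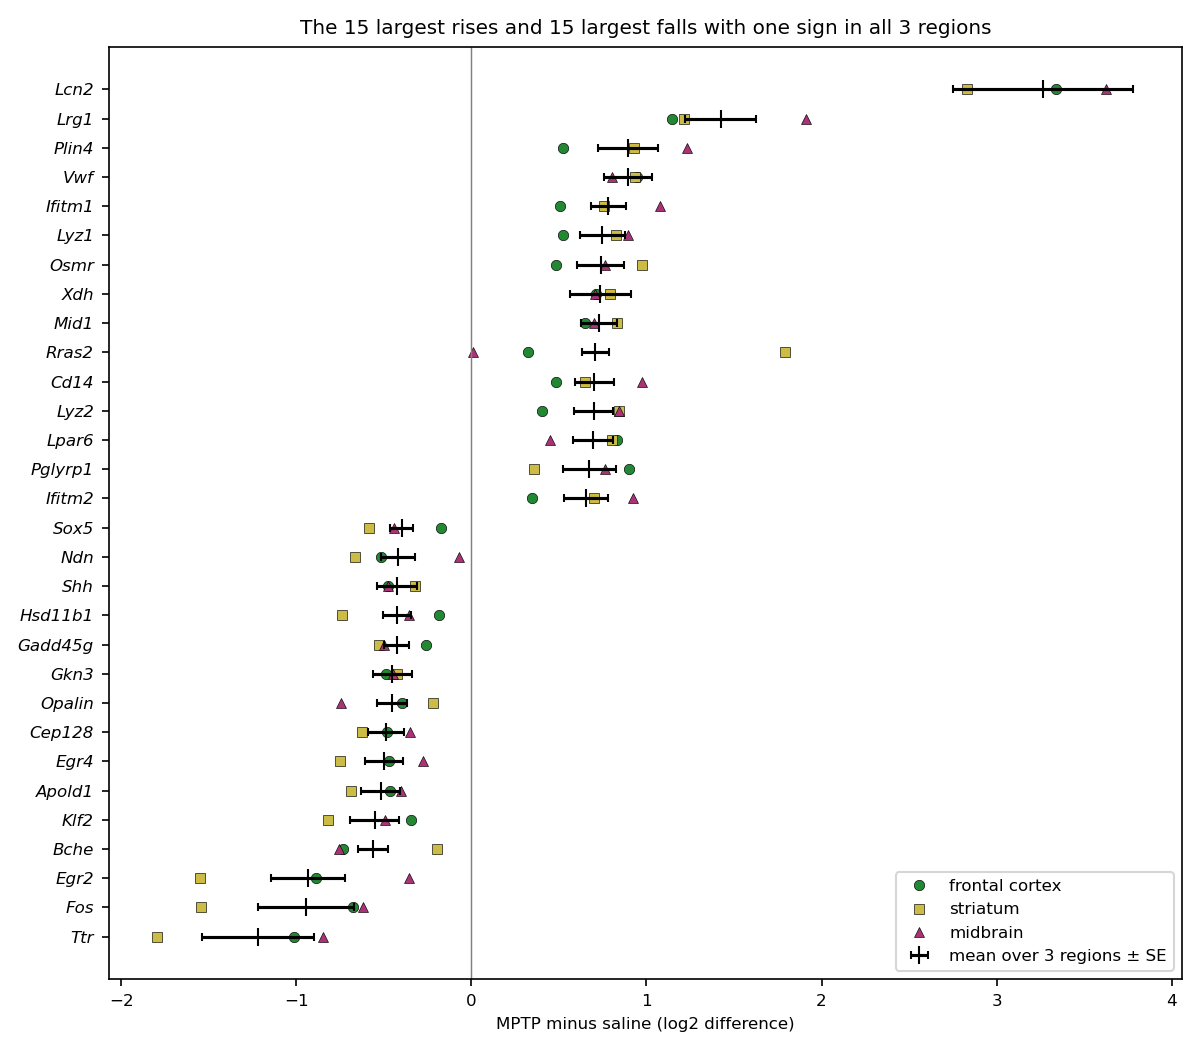
MPTP minus saline (log2) for called genes with one sign in all 3 regions (the 15 that rose most and the 15 that fell most), as coloured points per region and a black bar for the mean over regions with its standard error (3 arrays per group). Lcn2 stands apart with a mean of 3.27, and the regional points of Rras2, Egr2, Fos and Ttr are the most spread.

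Evenness across regions picked out other genes. By smallest p for a change in every region, the first 10 genes were Sp1, Endod1, Cx3cr1, Dbp, Luc7l2, Vwf, Mid1, Podxl, Adgrl4 and Abcc9. Sp1, a zinc finger transcription factor of many housekeeping promoters, rose by 0.40 and gave 0.41, 0.40 and 0.39 in frontal cortex, striatum and midbrain. Its saline arrays read 7.87, 7.63 and 7.82, then 8.18, 8.22 and 8.42, then 8.57, 8.35 and 8.55, and its MPTP arrays 8.24, 8.25 and 8.04, then 8.79, 8.59 and 8.64, then 8.87, 8.81 and 8.96. The groups did not overlap in any region, but another probe set of Sp1 above 5.18 gave -0.03, and the mean over its probe sets was 0.08 and was not called. The rise of Sp1 was therefore not repeated by its other probe sets. Luc7l2, a splicing factor of the U1 particle, rose by 0.45 with 0.28, 0.54 and 0.52. Its 5 other probe sets above 5.18 gave 0.44, 0.19, 0.15, 0.01 and -0.04, so 1 of them repeated the rise at its full size. Endod1, an endonuclease-domain gene, rose by 0.50 with 0.45, 0.60 and 0.46.

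Several of the even rises were of genes of the vessel wall. Podxl, a sialomucin on the luminal face of endothelium, rose by 0.59 (SE 0.08, adjusted p = 0.000241) with 0.55, 0.59 and 0.63 by region. Adgrl4, an adhesion receptor of endothelium, rose by 0.54, and Abcc9, the sulphonylurea receptor subunit of pericyte potassium channels, by 0.51. Of 18 tested endothelial markers 5 were called higher and none lower, 27.8% called against 9.04% of all tested genes. Of the 18, 10 were above 0 in all 3 regions and 6 below 0 in all 3, against 25.3% and 18.1% of all tested genes. The list thus did not move one way. The 5 called were Vwf, Sox17 (an arterial transcription factor, 0.57), Slco1a4 (an organic anion transporter of the blood-brain barrier, 0.31), Slc2a1 (the glucose transporter of the barrier, 0.40) and Flt1 (a receptor for vascular growth factor, 0.28). Another probe set of Sox17 above 5.18 gave 0.04, while those of Slc2a1 gave 0.30 and 0.28. The median of the endothelial list was 0.06, near the 0.01 of all genes, and the mean level of its genes overlapped between saline and MPTP arrays in all 3 regions. A list of 18 pericyte and meningeal genes had 2 rises (Abcc9 and Mgp), 1 fall (Slc6a13, a GABA transporter of the meninges) and a median of 0.01.

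Mid1 is a case where the saline group was split. Saline replicate 2 read 8.37, 8.64 and 8.24 in frontal cortex, striatum and midbrain, where the other saline arrays lay between 7.68 and 7.85, and the MPTP arrays lay between 8.41 and 9.07. Its groups did not overlap in any region, and the rise was 0.73 (SE 0.10, adjusted p = 0.000241). Both other probe sets of Mid1, at 0.16 and -0.10, had mean levels below 5.18.

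Microglial genes rose as the most complete group. Microglia are the resident immune cells of the brain, and 15 of 24 tested markers rose and none fell, with a median of 0.29 against 0.01 for all genes. That is 62.5% called, against 6.61% of all tested genes called higher. By region the median was 0.16 for frontal cortex, 0.36 for striatum and 0.32 for midbrain. The fractalkine receptor Cx3cr1 read 8.66, 8.52 and 8.47 on saline and 8.91, 8.89 and 8.90 on MPTP arrays of frontal cortex, 8.83, 8.85 and 8.76 against 9.41, 9.12 and 9.35 in striatum, and 8.51, 8.10 and 8.41 against 8.79, 8.56 and 8.73 in midbrain. It did not overlap in any region and rose by 0.39 (SE 0.06, adjusted p = 0.000259). The 3 chains of complement C1q rose together, C1qa by 0.50, C1qb by 0.52 and C1qc by 0.37. Fcrls (an Fc receptor-like protein), Cd53 (a tetraspanin of leukocytes) and Ptprc (the leukocyte phosphatase CD45) rose by 0.44, 0.44 and 0.55, the last measured as at least 0.38. Other homeostatic markers did not pass the test. P2ry12 gave 0.11 (adjusted p = 0.38), Tmem119 0.04 (adjusted p = 0.71), Siglech -0.06 and the lipid receptor Trem2 0.08. Of 14 genes of microglial activation 5 rose, the lysozymes Lyz1 and Lyz2, Cd52, the class I light chain B2m and the protease Ctsd, and none fell. That is 35.7% called, against 9.04% of all tested genes. As the arrays hold whole tissue, more cells of a type and more RNA per cell cannot be told apart here or below. Without MPTP replicate 3 in all regions 9 of the 24 microglial markers rose, without striatum 9, without midbrain 8, and without any 1 array 11 to 16.

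The blood could bring leukocyte RNA, and the markers of blood cells moved in part. Of 8 red cell and neutrophil genes on the array 5 were below 5.18 in every group, and the mean level of the 8 ran from 4.20 to 4.24 on saline and 4.27 to 4.50 on MPTP arrays in frontal cortex, 3.97 to 4.18 against 4.10 to 4.30 in striatum and 3.99 to 4.22 against 4.43 to 4.70 in midbrain. The heme synthesis enzyme of red cell precursors, Alas2, was the one member tested and was higher in each region, from 5.31 to 5.78, 5.27 to 5.75 and 5.33 to 5.98 in frontal cortex, striatum and midbrain. Its mean difference of 0.53 did not pass (adjusted p = 0.18). The neutrophil genes S100a8 and S100a9 averaged 4.75 and 5.25 in MPTP frontal cortex (4.17 and 4.56 in saline), 4.17 and 4.53 in MPTP striatum (3.95 and 3.96 in saline) and 5.24 and 5.57 in MPTP midbrain (3.88 and 4.09 in saline). The globin gene Hba-a1 lay at 3.34 to 3.39 in all groups, and Ngp, Camp and Ltf stayed below 5.18. The part of blood cells in the rises of Lcn2, Lrg1, Pglyrp1, Cd14 and the lysozymes was not tested.

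A minority of astrocytic genes rose. Of 19 astrocyte markers 7 rose, 12 did not pass and none fell, 36.8% called against 9.04% of all tested genes. The median of the list was 0.16, with 0.08, 0.23 and 0.14 for frontal cortex, striatum and midbrain. The rises included the serine protease Htra1 (0.32), the connexins Gjb6 (0.41) and Gja1 (0.30), the glutamate transporter Slc1a2 (0.22) and glutamine synthetase, Glul (0.22). The count was 2 without striatum, 2 without midbrain, 4 without MPTP replicate 3 in all regions and 11 without midbrain saline replicate 1. Of 16 genes of reactive astrocytes 7 rose and none fell (43.8% called against 9.04% of all tested genes), with a median of 0.20. They were Gfap, Vim, Lcn2, Cd14, Serpina3n (a serine protease inhibitor), Osmr and the copper-iron oxidase Cp, and 5 of them are also on the acute phase list. The filament gene Gfap rose by 0.58 (SE 0.08, adjusted p = 0.000259), with 0.32 for frontal cortex, 1.17 for striatum and 0.26 for midbrain, and Vim by 0.45, with 0.11, 1.01 and 0.22. Without striatum the adjusted p of both exceeded 0.05. Htra1 was the more even gene, with 0.32, 0.26 and 0.38. Of 15 acute phase genes 6 rose (Lrg1, Lcn2, Cd14, Serpina3n, Osmr and Cp) and none fell, 40% called against 9.04% of all tested genes.

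**Figure D4:**
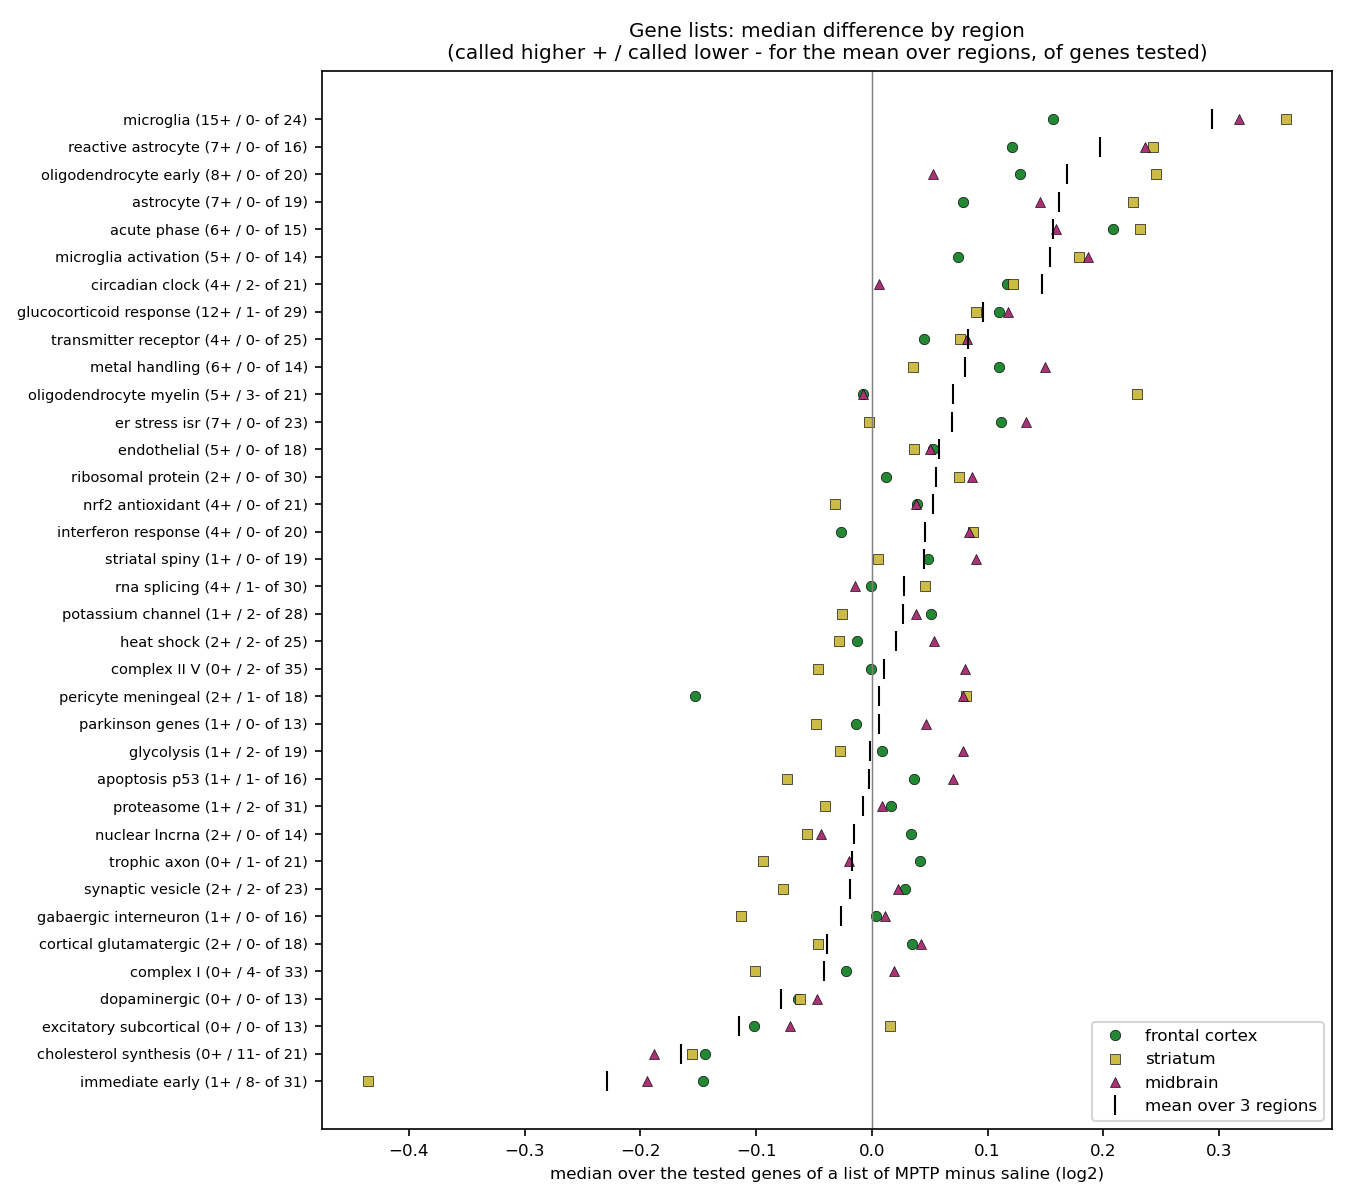
Median MPTP minus saline difference (log2) over the tested genes of each gene list with at least 10 of them, region markers aside, as coloured points per region and a black tick for the mean over regions, with the number called higher (+) and lower (-) of those tested beside each name. Of these the microglial list has the highest median (0.29), cholesterol synthesis and immediate early genes the lowest (-0.17 and -0.23), and the list of dopaminergic genes has none called.

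Oligodendrocyte genes rose mainly through striatum. Of 20 markers of early and precursor stages 8 rose and none fell, 40% called against 9.04% of all tested genes (median of the list 0.17). Among the rises were Strip2 (0.58), the transcription factors Olig1 (0.24) and Olig2 (0.33), the growth factor receptor Pdgfra (0.18) and the phosphatase Ptprz1 (0.26). Strip2 rose by 0.35, 0.87 and 0.52 in frontal cortex, striatum and midbrain. Rras2, Cnksr3 and Cemip2 of this list are among the genes whose response differed between regions, and without striatum 1 of the 20 was called. Of 21 myelin genes 5 rose (Ugt8a, Cldn11, Nfasc, Tspan2 and Myrf) and 3 fell (Opalin, Aspa and Ppp1r14a), 38.1% called. The galactolipid synthase Ugt8a rose by 0.39 and the myelin tight junction gene Cldn11 by 0.46, while Opalin, an oligodendrocyte membrane protein, fell by 0.45 and did so in each region (-0.40, -0.22 and -0.74).

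Genes that answer glucocorticoids, hormones of the adrenal stress response, rose in number. Of 29 tested 12 rose and 1 fell (the kinase gene Pdk4, -0.25), with a median of 0.10, where 6.61% of all tested genes rose and 2.43% fell. Fkbp5, a chaperone of the steroid receptor, read 7.15, 7.10 and 7.52 on saline against 8.06, 7.60 and 8.04 on MPTP arrays of frontal cortex, 8.04, 8.16 and 8.25 against 8.65, 8.17 and 8.20 in striatum, and 7.04, 6.88 and 7.14 against 7.79, 7.41 and 7.55 in midbrain. It rose by 0.47 (SE 0.08, adjusted p = 0.00117) and the groups overlapped in striatum only. Tsc22d3, an inhibitor of inflammatory transcription, rose by 0.43, the syndecan Sdc4 by 0.42 and the transcription factor Klf9 by 0.20, the last with 0.19, 0.19 and 0.21 by region. Hsd11b1, the enzyme that regenerates active glucocorticoid within cells, fell by 0.42 (SE 0.08, adjusted p = 0.0018), most in striatum (-0.74). With 1 mean per animal 9 of the 29 rose, without striatum 7 and without midbrain 4.

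Metal-binding and iron-handling genes overlapped with that list. Of 14 tested 6 rose and none fell, namely the metallothioneins Mt2 and Mt1, Cp, its membrane-bound relative Heph, the ferritin heavy chain Fth1 and the transferrin receptor Tfrc. That is 42.9% called, against 9.04% of all tested genes. Mt2 read 9.72, 9.90 and 9.94 on saline against 10.47, 10.00 and 10.29 on MPTP arrays of frontal cortex, 10.14, 10.43 and 10.30 against 11.11, 10.62 and 10.80 in striatum, and 10.51, 10.75 and 10.73 against 11.30, 10.79 and 11.15 in midbrain. No region overlapped, replicate 2 was the lowest MPTP array in each, and the rise was 0.46 (SE 0.07, adjusted p = 0.000657). Without MPTP replicate 3 in all regions 3 of the 14 rose, and 3 did after a second quantile normalization.

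The promoter of Mt2 is shown because its gene rose evenly and its window is dense in matches to TGCNCNC. This is a looser pattern than the metal response element core of the metal-sensing factor Mtf1, so a match need not be such a site. The sequence is the 250 bases before the gene start from RefSeq, build GRCm38.p6, chr8:94172368-94172617 on the plus strand, with matches on either strand in capitals. It holds 5 matches. The window of the clock gene Dbp also holds 5, so this density is not particular to metal-handling genes. Among the other metal-handling rises, Mt1 has 1 match and Fth1 none, while 1 window of Cp and those of Tfrc hold some, fewer than 5. At least 5 occur in 113 of 32851 promoters (0.344%), while at least 1 match is in 47.2% of all genes of the table, 58.9% of the tested genes, 59.2% of those called higher and 63.7% of those called lower.
Mt2: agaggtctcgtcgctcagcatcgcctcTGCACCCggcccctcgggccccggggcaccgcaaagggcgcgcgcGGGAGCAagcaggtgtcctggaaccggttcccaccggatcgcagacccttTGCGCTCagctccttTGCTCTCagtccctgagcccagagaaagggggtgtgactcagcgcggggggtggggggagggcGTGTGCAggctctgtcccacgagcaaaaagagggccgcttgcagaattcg

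Interferon-inducible genes rose as 1 family. Of 20 tested 4 rose and none fell, 20% called against 9.04% of all tested genes, with a median of 0.05 near that of all genes. Ifitm1, Ifitm2 and Ifitm3, neighbouring genes for membrane proteins that hinder virus entry, rose by 0.78, 0.66 and 0.66, and the class I gene H2-D1 rose by 0.20, a call lost in 13 of 41 alternative settings. H2-D1 shares sequence with other class I genes, so its value is uncertain. Ifitm1 read 6.47, 6.53 and 6.43 on saline against 6.86, 6.59 and 7.51 on MPTP arrays of frontal cortex, 6.06, 5.95 and 5.54 against 6.58, 6.49 and 6.75 in striatum, and 6.47, 6.67 and 6.78 against 7.63, 7.55 and 7.97 in midbrain. It did not overlap in any region (SE 0.10, adjusted p = 0.000135). All 3 were smallest in frontal cortex and largest in midbrain. The Ifitm2 promoter is shown because it alone of the 3 windows holds a match to the interferon-stimulated response element, searched as GAAA, any 2 bases and GAAA on either strand, 46 bases before the gene start. The window is chr7:140955962-140956211 on the minus strand of GRCm38.p6, from RefSeq. The motif was in 3.46% of all genes' promoters in the table, 3.07% of those tested, 2.61% of those called higher and 2.65% of those called lower. No match in a window says only that these letters are not in it.
Ifitm2: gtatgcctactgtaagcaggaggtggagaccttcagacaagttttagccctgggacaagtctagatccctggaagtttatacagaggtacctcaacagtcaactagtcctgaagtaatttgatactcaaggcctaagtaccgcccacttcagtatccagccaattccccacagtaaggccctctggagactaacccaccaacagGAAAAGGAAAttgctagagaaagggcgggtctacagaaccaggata

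Chaperones of the endoplasmic reticulum rose by small amounts. Of 23 genes of its stress response 7 rose and none fell (median 0.07), 30.4% called against 9.04% of all tested genes. Calreticulin, Calr, rose by 0.26 (0.26, 0.21 and 0.32 by region), its partner Canx by 0.23, Hsp90b1 by 0.26, the transcription factor Xbp1 by 0.31 and the serine synthesis enzyme Psat1 by 0.23. Other probe sets above 5.18 gave 0.10 and 0.06 for Canx and 0.06 for Hsp90b1, so these rises were not repeated at their size. Those of Calr gave 0.26 and 0.26, and that of Psat1 gave 0.30. Without saline replicate 2 or without MPTP replicate 3 in all regions 4 of the 23 rose, and without midbrain 1 did. Of 21 antioxidant genes under the factor Nfe2l2 4 rose, Nfe2l2 itself (0.29), catalase (Cat, 0.25), Gpx1 (0.20) and Prdx2 (0.13). That is 19% called, against 9.04% of all tested genes. Cat and Nfe2l2 were at -0.09 and 0.00 in frontal cortex.

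Clock genes changed in both directions. Of 21 tested 4 rose (Dbp, Nr1d2, Rorb and Ciart) and 2 fell (Arntl and Csnk1d), 28.6% called against 9.04% of all tested genes, with a median of 0.15. Dbp, a transcription factor driven by the clock, read 9.15, 9.13 and 9.20 on saline against 9.25, 9.58 and 9.61 on MPTP arrays of frontal cortex, 10.41, 10.29 and 10.22 against 10.70, 10.83 and 10.64 in striatum, and 9.23, 8.91 and 8.94 against 9.29, 9.46 and 9.41 in midbrain. It did not overlap in any region and rose by 0.37 (SE 0.05, adjusted p = 0.000304), with 0.32, 0.42 and 0.36. Nr1d2, a repressor in the clock loop, rose by 0.23, and its target Arntl, the partner of Clock, fell by 0.26. Other probe sets above 5.18 gave 0.03 for Nr1d2, -0.03 for Arntl, and 0.10 and 0.04 for Rorb. The changes of these genes were thus not repeated at their size, while another probe set of Dbp gave 0.27. The hour at which brains were taken is not in the labels, and its part in these values was not tested.

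Immediate early genes, switched on within minutes of neuronal firing, were the group with the lowest median (-0.23). Of 31 tested 8 fell (Gadd45g, Egr4, Egr2, Dusp14, Klf2, Egr1, Fos and Btg2), 1 rose (Egr3) and 20 were below 0 in all 3 regions. The median was -0.15 for frontal cortex, -0.44 for striatum and -0.19 for midbrain. Among all tested genes 2.43% were called lower and 18.1% were below 0 in all 3 regions. Fos, the transcription factor gene most used to mark activity, read 9.04, 8.90 and 9.19 on saline against 7.19, 8.69 and 9.22 on MPTP arrays of frontal cortex, 7.98, 8.75 and 8.26 against 5.26, 7.50 and 7.62 in striatum, and 8.54, 8.82 and 9.35 against 7.41, 8.56 and 8.89 in midbrain. MPTP replicate 1 was the lowest array in every region, and the groups overlapped in frontal cortex and midbrain. Fos fell by 0.94 (SE 0.27, adjusted p = 0.0319). With 1 mean per animal the adjusted p was 0.080, and without MPTP replicate 1 in all regions the difference was -0.35 and was not called.

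Egr2, an early growth response factor, fell by 0.93 (SE 0.21, adjusted p = 0.0076), from 6.34, 5.93 and 6.60 to 4.22, 5.61 and 6.38 in frontal cortex and from 6.39, 7.43 and 7.49 to 4.89, 5.71 and 6.04 in striatum. In midbrain all its values lay below 5.18, at 3.50 to 4.35, so the midbrain difference is not a measured one and the fall is at least 0.81. Gadd45g, a stress-inducible gene of the growth arrest family, was the one member whose groups did not overlap. It read 6.98, 6.80 and 6.78 on saline against 6.49, 6.54 and 6.75 on MPTP arrays of frontal cortex, 7.17, 7.55 and 7.28 against 6.80, 6.96 and 6.66 in striatum, and 7.38, 7.24 and 7.76 against 6.93, 6.96 and 6.99 in midbrain. It fell by 0.43 (SE 0.07, adjusted p = 0.000938). Its relative Gadd45a fell by 0.36. Klf2, Egr4 and Apold1, an early gene of vessel cells, fell by 0.55, 0.50 and 0.52. Arc and Nr4a3 gave -0.94 and -0.62 and did not pass (adjusted p = 0.059 and 0.055). Egr3, of the same family as Egr2, rose by 0.39 (at least 0.20), but another of its probe sets above 5.18 gave -0.19. Leaving out 1 array left 5 to 11 falls of the 31, leaving out 1 animal 3 to 11, leaving out striatum 1 and leaving out midbrain 4. With robust variances 3 of the 31 fell, and with the replicate number as a fixed term 13.

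Genes of cholesterol synthesis fell together. Of 21 tested 11 fell and none rose, 52.4% called against 2.43% of all tested genes called lower. Of the 21, 15 were below 0 in all 3 regions, against 18.1% of all tested genes. The median of the list was -0.17, with -0.14, -0.16 and -0.19 by region. The 11 covered much of the pathway: Hmgcs1 (which makes the precursor of mevalonate, -0.20), Mvd (-0.36), Idi1 (-0.18), Fdft1 (squalene synthase, -0.13), Lss (-0.23), Cyp51 (-0.28), Tm7sf2 (-0.29), Hsd17b7 (-0.23), Sc5d (-0.19), Dhcr7 (-0.30) and the regulator Srebf2 (-0.15). Dhcr7, which makes cholesterol from its last precursor, read 7.66, 7.65 and 7.66 on saline against 7.45, 7.58 and 7.38 on MPTP arrays of frontal cortex, 7.53, 7.61 and 7.57 against 7.15, 7.49 and 7.22 in striatum, and 8.16, 8.05 and 8.37 against 7.60, 7.96 and 7.71 in midbrain. No region overlapped, although MPTP replicate 2 stayed nearest to saline in each, and the fall was 0.30 (SE 0.06, adjusted p = 0.00353). The remaining members lay between -0.17 (Pmvk and Sqle) and 0.09 (Scd2) and did not pass. With 1 mean per animal 7 of the 21 fell, without striatum 4 and without midbrain none. When the probe sets of each gene were averaged 4 fell, and without striatal saline replicate 2 alone 2 did. Of the matched promoters of called falls 1 held the sterol element, searched as ATCAC, any base and CCAC on either strand (0.442%), against 0.226% of all promoters in the table and 0.179% of those tested. The windows of Hmgcs1, Mvd, Idi1, Lss, Cyp51, Tm7sf2, Hsd17b7, Sc5d, Dhcr7 and Srebf2 held no match, so that promoter belongs to none of these genes.

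The largest fall was of Ttr, the thyroxine carrier that the choroid plexus makes in bulk. It read 4.12, 4.96 and 6.16 on saline against 4.02, 3.97 and 4.22 on MPTP arrays of frontal cortex, 10.14, 10.61 and 10.20 against 7.01, 8.37 and 10.18 in striatum, and 8.18, 7.53 and 7.22 against 7.39, 5.48 and 7.51 in midbrain. The groups overlapped in all 3 regions, and the fall was 1.22 (SE 0.32, adjusted p = 0.0194). As every MPTP array of frontal cortex lay below 5.18, the measured fall is at least 0.88. The call was lost in 9 of 41 alternative settings, with an adjusted p of up to 0.196, and 1 of these left out the narrow saline arrays. Of 12 choroid plexus genes on the array 9 were below 5.18 in every group, among them Folr1, Kcnj13 and Kl. The mean level of the 11 genes other than Ttr was 3.75 to 3.87 on saline and 3.75 to 3.84 on MPTP arrays of frontal cortex, 3.95 to 4.03 against 3.89 to 3.96 in striatum and 4.09 to 4.38 against 4.20 to 4.24 in midbrain, with overlap in each region. Clic6, a chloride channel gene, averaged 6.16 in saline and 6.36 in MPTP striatum. The part of choroid plexus left on the dissected tissue in the fall of Ttr was not tested.

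Other falls had one sign in all 3 regions. Bche, butyrylcholinesterase, fell by 0.56 (SE 0.08, adjusted p = 0.000282), from 5.64, 5.61 and 5.40 to 4.98, 4.62 and 4.84 in frontal cortex and from 6.01, 5.99 and 6.37 to 5.39, 5.33 and 5.38 in midbrain. Its striatal values lay below 5.18 in both groups, and the fall is at least 0.37. Gkn3, a gastrokine, fell by 0.45 with -0.49, -0.42 and -0.45, and the signalling gene Shh by 0.42 with -0.48, -0.32 and -0.48. The neuronal growth suppressor Ndn and the transcription factor Sox5 fell by 0.42 and 0.40, and Cep128, a centriole gene, by 0.49 (at least 0.37). Ndn was -0.07 in midbrain, and its 4 other probe sets above 5.18 gave -0.09 to -0.39. Those of Sox5 above 5.18 gave -0.19 and -0.01, so the fall of Sox5 was not repeated at its size. Among falls with no overlap, those with the largest change in their least changed region included Gadd45g, Sox5 and Dhcr7. The others so ranked were Tpm1 (tropomyosin, -0.35), Gnl2 (a GTPase of ribosome assembly, -0.24), Haghl (-0.22), Dmap1 (-0.21) and Pfdn6 (a prefoldin subunit, -0.20). Other probe sets above 5.18 gave -0.02 and -0.02 for Tpm1 and -0.05 and -0.07 for Gnl2, so neither fall was repeated at its size. The other probe sets of Haghl gave -0.21, -0.19 and 0.02.

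Genes of dopaminergic neurons, the direct target of the toxin, were not called for the mean over regions. Th, the rate-limiting enzyme of dopamine synthesis, read 8.97, 8.92 and 8.64 on saline against 8.09, 8.04 and 7.94 on MPTP arrays of midbrain, while in striatum it read 5.94, 5.73 and 5.51 against 5.59, 5.42 and 4.95 and in frontal cortex values below 5.18 occurred in both groups. The midbrain arrays did not overlap, the striatal arrays did, and the mean over regions was -0.50 (SE 0.17, adjusted p = 0.0588), not called. Slc6a3 gave -0.19 (adjusted p = 0.195), of which -0.12 is measured. Its frontal cortex and striatal arrays all lay below 5.18, and in midbrain it differed by -0.37 with no overlap. None of 13 dopaminergic genes was called for the mean over regions, and their median was -0.08. For a gene measured in midbrain alone, such as Slc6a3, this mean cannot show whether the gene responded there. The 33 tested subunits of respiratory complex I had 4 falls (Ndufc2, Ndufb3, Ndufs1 and Ndufa6, each by 0.12 to 0.14), 12.1% against 2.43% of all tested genes called lower. None of the 33 fell with 1 mean per animal, and 16 did after a second quantile normalization. The median of the 33 was -0.04.

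Lists of other functions had few calls. Of 31 proteasome genes 1 rose and 2 fell, of 30 ribosomal protein genes 2 rose, of 25 heat shock genes 2 rose and 2 fell, of 16 genes of apoptosis 1 rose and 1 fell, and of 35 genes of complexes II to V 2 fell. Their shares called lay between 5.71% and 16%, on both sides of the background of 9.04%. Of 25 transmitter receptor genes 4 rose and none fell, including the metabotropic glutamate receptor Grm5 (0.26) and the glycine receptor chain Glrb (0.29), which was at -0.05 in frontal cortex. Of 13 genes of inherited parkinsonism Vps35, a retromer subunit, rose by 0.22, and none fell. None of the tested markers of the 3 regions was called, and several differed by unlike amounts. Slc17a7 averaged 8.05 in saline and 6.83 in MPTP striatum and 5.88 and 5.11 in midbrain, against 10.30 and 10.50 in frontal cortex, where it is most abundant. Slc17a6, the glutamate transporter of subcortical neurons, averaged 5.03 and 4.28 in striatum and 10.63 and 10.90 in midbrain, and the cortical factor Neurod6 4.56 and 3.93 in striatum and 7.95 and 7.88 in frontal cortex, both below 5.18 in striatum. The share of cortical tissue in the striatal and midbrain dissections can move genes of cortical neurons, the early genes above included, and its part was not tested.

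Gene lists were counted again without the 3 saline arrays of narrow range. Microglial rises numbered 12 of 24 (median 0.26), astrocytic rises 5 of 19 with 1 fall (0.10) and reactive astrocyte rises 7 of 16 (0.09 against 0.20). Glucocorticoid rises numbered 8 of 29, metal-handling rises 4 of 14, rises of the endoplasmic reticulum 5 of 23 with 1 fall, and antioxidant rises 2 of 21 with 1 fall. Clock genes had 3 rises and 2 falls (0.04 against 0.15), transmitter receptors 2 rises and 1 fall, and proteasome genes 6 falls. The falls of cholesterol synthesis numbered 11 of 21 (median -0.21) and those of early genes 7 of 31 (-0.31). Of the 100 called genes followed through the alternatives 7 lost their call, namely Ttr, Fos, Xdh, H2-D1, Cat, Vps35 and the cyclin gene Ccng1.

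Of the genes called for the mean, 6 also differed between regions, a predicted gene and 5 named ones. Rras2, Cnksr3 (a scaffold of kinase signalling), Cemip2 (a cell-surface hyaluronidase), Sirt2 (a deacetylase abundant in oligodendrocytes) and Nfasc (a cell adhesion protein of nodes of Ranvier) were each largest in striatum, at 1.79, 1.73, 1.35, 0.56 and 0.88, and each lay between -0.17 and 0.11 in midbrain. In frontal cortex they lay between 0.10 and 0.32. Without striatum none of the 5 was called, and Cnksr3 turned to -0.04.

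**Figure D5:**
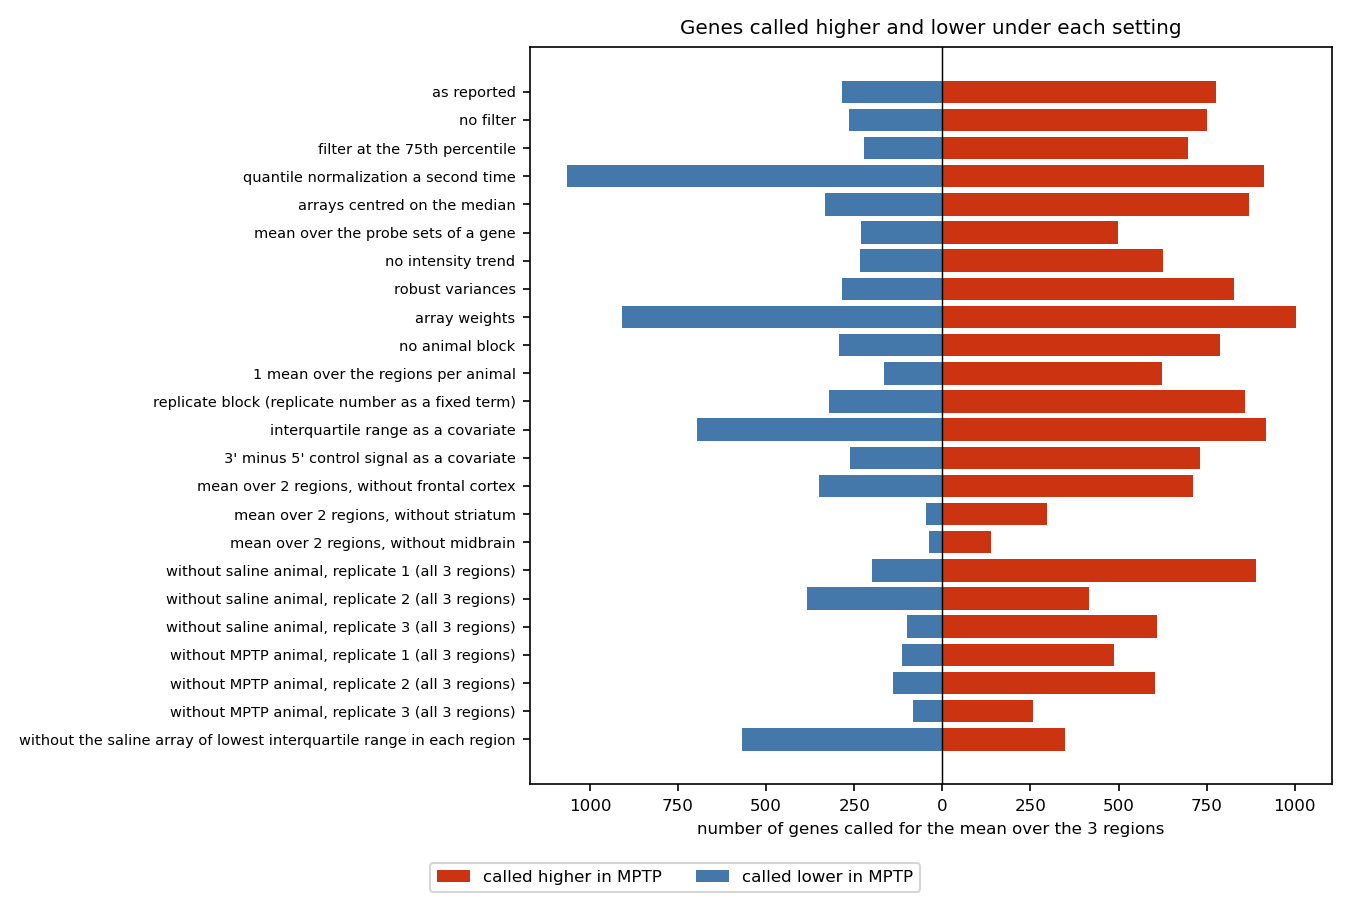
Number of genes called higher (red, to the right) and lower (blue, to the left) for the mean over regions under each setting, those that leave out a single array not shown. The reported setting gives 776 and 285, and the number of falls ranges widely, from 38 without midbrain to 1066 after a second quantile normalization.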

How the data were processed

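Total RNA of each sample was hybridised to 1 Affymetrix mouse expression array, per the labels. The authors deposited log2 values, 1 per probe set, that RMA had summarised, per the submitters' processing notes (version not given in the sources used here). The deposited arrays did not share one distribution exactly, with interquartile ranges of 3.37 to 3.65 and medians of 5.14 to 5.21. As this method is meant to bring arrays to one distribution, a shift of all genes may still not be visible. The log2 base was read from the values, 2.48 to 14.2.

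Of 45101 probe sets 34958 had 1 gene, 932 had several and 9211 were unlisted, and only the first kind was used for genes. Symbols came by Entrez ID from the GRCm38.p6 annotation for 34754 and from the array annotation for 204. For each of 18194 genes the probe set with the highest mean of the 18 values was kept, and 11741 genes whose mean reached 5.18, the 50th percentile of all values, in at least 1 region were tested. No detection call was used. A lower limit of a change sets a group below 5.18 to that value.

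Limma 3.58.1 in R 4.3.3 was fitted over all 18 arrays with a mean for each of 6 groups, an intensity trend, Benjamini-Hochberg adjustment at 0.05 and the animal (treatment and replicate number) as a random block (correlation 0.00558). The 12 residual degrees of freedom became 23.3 after moderation. Where the numbers do not mark animals, p-values measure only the spread between these samples, which may be technical. Precision is limited by the 3 arrays per group. Replicate numbers were checked for pairing: arrays of one treatment and number in different regions correlated in their deviations at -0.233 to 0.342 (median 0.138), 11 of 18 pairs over 0.1.

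Genes named were the 15 largest rises and falls of one sign in all regions, the 8 each way most separated in every region, the 10 of smallest p in all regions, the 5 called genes of strongest interaction, and up to 4 per gene list, called members first. Gfap, Th and Slc6a3 were always named, and predicted genes passed over. Further list members, and S100a8, S100a9 and Hba-a1, were named after their values were seen. The 43 gene lists held 994 entries, 905 on the array (7 by an older symbol) and 796 tested. The members and lists were chosen with earlier results of these data known. Alternatives were other filters, normalizations, variances, blocks, covariates and probe set rules, leaving out arrays, animals or regions and, added after the data were seen, leaving out the saline array of narrowest range in each region. Promoters were matched by symbol for 9494 tested genes.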

Additional observations from a re-analysis of the deposited data

Results flagged for a closer look

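The difference between regions in the response to MPTP was tested for each gene as a region by treatment interaction by limma with Benjamini-Hochberg adjustment over 11741 genes, and 8 genes passed. The predicted gene 9630013A20Rik gave, in the order frontal cortex, striatum, midbrain, differences of 0.33, 3.01 and -0.09 (interaction, adjusted p = 7.63e-10 by limma). Cnksr3 gave 0.10, 1.73 and -0.17 (adjusted p = 3.94e-06), and Rras2 gave 0.32, 1.79 and 0.01 (adjusted p = 1.18e-05). The protease gene Adamts4, which was not called for the mean over regions, gave -0.10, 0.60 and -0.45 (adjusted p = 0.00215). Cemip2 followed with 0.21, 1.35 and 0.11 (adjusted p = 0.00237), Sirt2 with 0.13, 0.56 and -0.13 (adjusted p = 0.00269) and Nfasc with 0.15, 0.88 and -0.01 (adjusted p = 0.00311). Fam107b gave -0.16, 0.71 and -0.15 (adjusted p = 0.0173) and was not called for the mean. All 8 were largest in striatum.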

How the results depend on the processing

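The count of 1061 called genes became 1978 after a second quantile normalization (912 higher, 1066 lower, 46.1% higher), 1910 with array weights (1002 and 908), 1612 with the interquartile range as a covariate (917 and 695), 343 without striatum (297 and 46) and 177 without midbrain (139 and 38). Rises numbered 498 with the mean over probe sets and 347 without the narrowest saline array of each region, with 569 falls then, and falls 165 with 1 mean per animal. Interactions numbered 3 with a filter at the 75th percentile, 22 after quantile normalization, 34 with array weights and 23 with the covariate. Leaving out 1 array gave 424 to 1527 called genes, 366 to 1206 rises, 47 to 707 falls, 7 to 24 interactions and 0 genes that pass in all 3 regions. Leaving out 1 animal gave 341 to 1090 called genes, 5 to 23 interactions and 0 to 6 genes that pass in all regions. Rises and falls were 416 and 383 without saline animal 2 (with 14 interactions), 608 and 100 without saline animal 3, and 487 and 115, 602 and 141, and 258 and 83 without MPTP animals 1, 2 and 3. The total moved by over 1.5 times without striatal saline replicate 1 (490) or 2 (424), cortical MPTP replicate 2 (668), midbrain MPTP replicate 3 (658), MPTP animal 1 (602) or MPTP animal 3 (341). The replicate numbers did not meet the rule for pairing. With the number as a fixed block 1180 genes were called (858 higher, 322 lower), 1053 of them shared.

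Of 100 called genes followed through the alternatives 35 kept their call in all 41 settings or those that tested them, among them Lcn2, Lrg1, Vwf, Mid1, Cx3cr1, Podxl, C1qa, Mt2, Fkbp5, Dbp, Bche and Gadd45g. Another 64 lost it in at least 1, most often Ndufb3, Ndufs1 and Ndufa6 (26), Fos (16), Ndufc2 (15) and H2-D1 (13), and Cnksr3 turned to -0.038 without striatum. Of 186 other probe sets of called genes 143 had the same sign, 87 of them at an unadjusted p under 0.05 by limma. The remaining 43 had the other sign, 26 of these at or above 5.18. Of the 43, 22 belong to genes not described here, with the largest at -0.99 for Hspa8 (used probe set 0.15), -0.24 for Vamp2, 0.24 for Pnisr and -0.20 for Malat1. The other 21 gave 0.034 for Cep128, -0.19 for Egr3, -0.061 for Fkbp5, -0.046 and -0.12 for H2-D1, 0.018 for Haghl, 0.072 for Hmgcs1, -0.042 for Luc7l2, -0.10 for Lyz1, -0.099 for Mid1, 0.058, 0.0080 and 0.048 for Ndn, 0.0031 and 0.049 for Ndufc2, -0.11 for Osmr, -0.099 for Slc1a2, 0.065 and 0.024 for Sox5, and -0.14 and -0.029 for Sp1. The cause was not tested.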
